A study of Mus musculus with 3 samples.

Results

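Lama5 encodes the laminin α5 chain, and its mRNA was listed with 23 called 5-methylcytosine (m5C) sites in the germinal vesicle (GV) oocyte of the mouse, 34 in the metaphase II (MII) oocyte and 38 at the 1-cell embryo stage. The members described here are every listed site assigned to this gene, 56 distinct sites of 40298 in all. The gene was chosen by its many called sites at each stage, so these numbers are a description and were not tested. It ranked 1, 1 and 2 by site number among the 6108, 6736 and 6407 genes with a site at the respective stage.

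Each stage was represented by 1 RNA bisulfite sequencing library from wild-type C57BL/6J females of 7 to 8 weeks, with no replicates. GV oocytes were taken 48 h after 10 IU of PMSG, the hormone that primes follicle growth. MII oocytes were taken 12 h after 5 IU of hCG, the hormone that triggers ovulation, in females primed with 10 IU of PMSG. The 1-cell embryos came from mated females 24 h after 5 IU of hCG, following 5 IU of PMSG, and about 200 embryos were pooled. The doses are those of the labels. A higher hCG dose for MII oocytes and an age of up to 10 weeks for oocyte donors stand in the published methods. In the labels the PMSG dose and the conversion protocol differ between oocytes and embryos. Stage, PMSG dose and library preparation therefore cannot be told apart. At most of the sites that could be compared, the deposited embryo list held other coverage and levels than the list given with the study, so its values describe the deposited library alone. None of the comparable sites was in Lama5.

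Laminins are heterotrimers of an α, a β and a γ chain that assemble into the sheet of the basement membrane and bind integrins and dystroglycan on the cell surface. The α5 chain is a large, multidomain chain that is needed in embryogenesis and is found in many epithelial basement membranes. Bisulfite turns an unmethylated C of RNA into U, which is read as T, so the share of reads that kept C gives the m5C level. In mRNA, NSUN2 methylates G-rich sites at the base of a stem (Type I), whereas NSUN6 methylates the motif CTCNA (Type II, written with T as in cDNA). Fully grown oocytes and early embryos are transcriptionally quiet and run on maternal mRNA.

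The gene (ENSMUSG00000015647) lies on the minus strand of chromosome 2 at chr2:180176373-180225859 of GRCm38. Its transcript ENSMUST00000015791.5 has 79 exons and 11388 nt, with a 5′ UTR of 57 nt, a coding sequence (CDS) from nt 58 to 11211 and a 3′ UTR of 177 nt. All 56 sites were C of the minus strand and all lay in the CDS, in 40 exons. Sites are named below by their position in this transcript, counted from its start. The sequences below show some of the sites described further on, with 10 bases on either side in the spliced transcript. Not every site called in a stage comparison is among them. Capitals mark the called C, which comes first, and the bases at +1 to +4, where the G-rich motif of Type I sites lies.
Site 81, exon 1, chr2:180225779: gagggcagctCTGCGcgggga
Site 1005, exon 6, chr2:180206748: tctgtgacgcCAAGGacccat
Site 1026, exon 6, chr2:180206727: tggatcctttCAGGCtgcagt
Site 2724, exon 22, chr2:180196255: cggccactccCGAGGgccacg
Site 3090, exon 24, chr2:180195558: aaggtgtactCTTGGactacg
Site 4078, exon 32, chr2:180192976: cttttgtcctCATGGttatgg
Site 4237, exon 33, chr2:180192459: ctccagttacCTCCAagagga
Site 4664, exon 35, chr2:180191611: tgtaactgctCAGGGcccggc
Site 4678, exon 35, chr2:180191597: gcccggcgtcCAGGAgctgac
Site 6510, exon 48, chr2:180186611: gccagcagcaCCAGGtgcctg
Site 6511, exon 48, chr2:180186610: ccagcagcacCAGGTgcctgt
Site 9963, exon 71, chr2:180178542: cccaactcatCGAGAcctcaa

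The printed windows of sites 1026 and 3090 cross an exon junction, so only the C itself has the coordinate given. Site 4237 was the only Lama5 site with the CTCNA motif, which 39 of the 3509 C of the transcript (1.11%) begin. The other 55 sites were Type I by the rule of the study, which puts every site without this motif in that class. The class therefore does not mean that a site is G-rich.

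The libraries were read unevenly at Lama5. The median coverage of its sites was 166 reads for GV oocytes (range 60 to 259), 136.5 for MII oocytes (53 to 284) and 39.5 for 1-cell embryos (20 to 90). No embryo site reached 100 reads, and 27 of the 38 had fewer than 50, against 0 of 23 and 0 of 34 in the oocytes. At the sites shared between stages the coverage in the embryo was 0.195 times that in the GV oocyte (median of 16 sites), while over all shared sites it was 0.280 times. The embryo library also held fewer reads at called sites of all genes (2616279, against 4475058 and 5285011 in the GV and MII oocytes). Sequencing depth, the number of cells and the amount of Lama5 RNA per cell cannot be told apart in these pooled libraries. Among marker genes, 8, 11 and 12 of 14 oocyte genes had a called site (53051, 55658 and 23495 reads in the order of the stages), against 1, 2 and 1 of 14 cumulus and granulosa genes (125, 145 and 399 reads). Reads are known at called sites alone, so a marker without a called site adds none, however much of its RNA was present. The study also reported only low methylation in the follicle cells around the oocyte. These counts therefore cannot show how free of such cells the libraries were.

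The m5C level of a Lama5 site was higher in the embryo list than in either oocyte list. Its median was 18.6% for GV oocytes (quartiles 13.0 and 28.8, range 11.3 to 76.5), 16.8% for MII oocytes (12.2 and 33.5, range 10.1 to 79.7) and 35.6% for 1-cell embryos (21.1 and 55.5, range 11.1 to 100). Over all genes the medians were 19.5%, 19.8% and 23.8%, so that Lama5 lay slightly below the list in both oocytes and above it in the embryo. With the reads of all sites added up, 895 of 3744 (23.9%), 1119 of 4841 (23.1%) and 576 of 1620 (35.6%) were unconverted. A level of 50% or more was found at 1, 3 and 13 sites. Most oocyte sites were weakly methylated, with 13 of 23 and 19 of 34 under 20%, compared with 9 of 38 in the embryo.

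**Figure D1:**
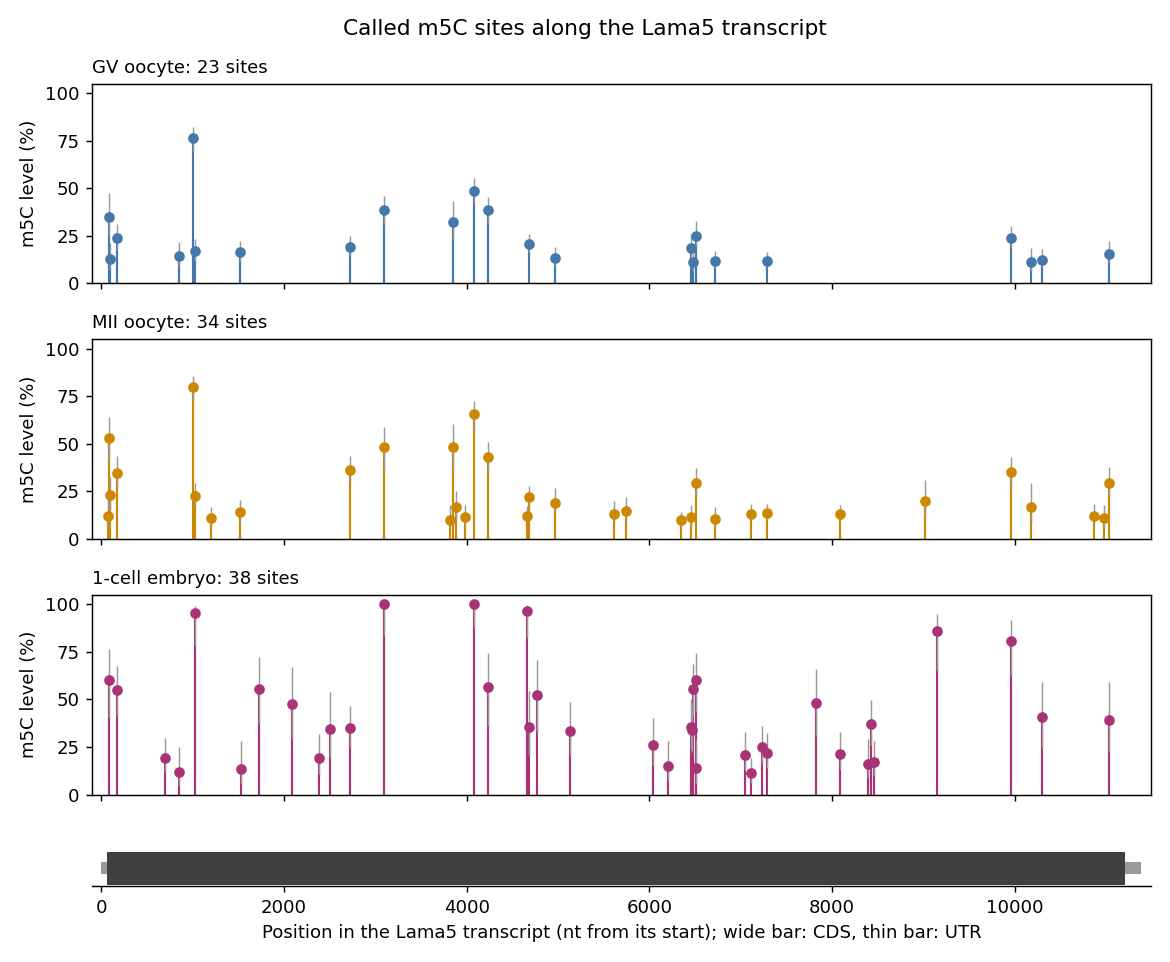
Level of each called site (points, in % of reads; grey bars, 95% Wilson interval) against its position in the Lama5 transcript (nt from the start), with 1 panel per stage and the CDS as a wide bar. The 23, 34 and 38 sites run along the whole CDS. The tallest oocyte point at nt 1005 (76.5% and 79.7%) has no counterpart in the embryo, whose highest points, at nt 3090 and 4078, are at 100%.

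In the embryo the level moved with coverage. Across its 38 sites Pearson's r of level and coverage was -0.62 and Spearman's rho was -0.66, against -0.22 and -0.19 across 34 sites in the MII oocyte and 0.0027 and 0.026 across 23 sites in the GV oocyte. These are descriptions over sites that share a library and partly share reads. The 16 embryo sites of 20 to 29 reads had a median of 56.0%, the 11 of 30 to 49 reads 26.1% and the 11 of 50 to 99 reads 21.5%. All embryo sites of these bands had medians of 42.9%, 28.1% and 18.5%, so the same order held outside Lama5. Over all genes the oocyte medians were also highest at 20 to 29 reads, at 29.6% for GV and 29.2% for MII oocytes. They were lower in each band from 30 reads on. No Lama5 site in the oocytes had fewer than 50 reads, so the oocyte correlations do not cover this range. The contrast with the embryo therefore cannot be read as particular to that stage. A listed site needs at least 20 reads, a level of 10% and 5 unconverted reads, so a site of 20 reads can be listed only from 25% on. Of the 13 embryo sites at 50% or more, 10 had fewer than 30 reads.

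**Figure D2:**
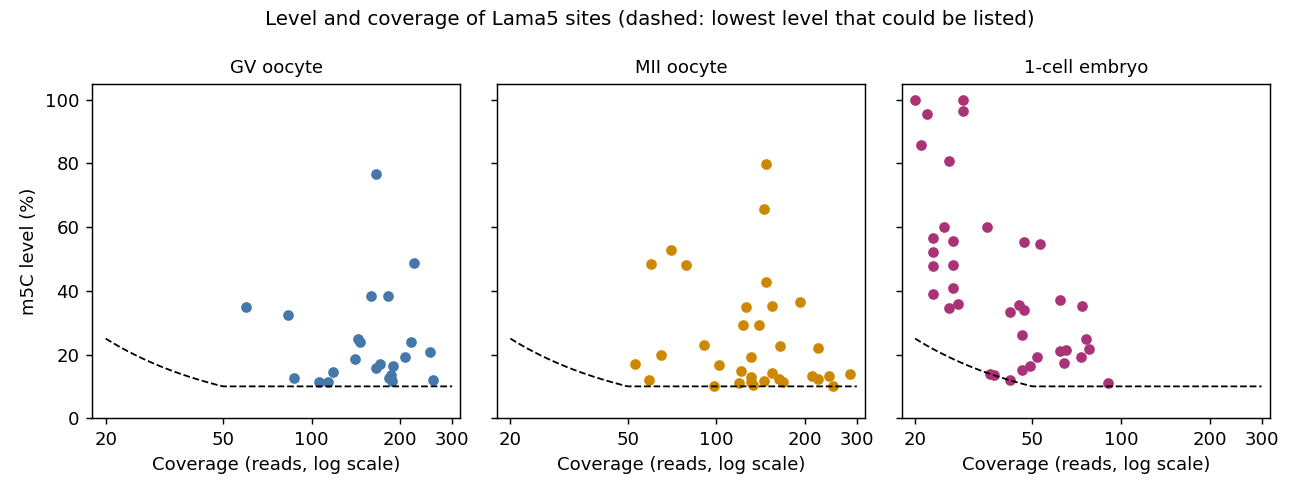
Level (%) against coverage (reads, log scale) of the Lama5 sites in each stage, with the lowest level that could be listed as a dashed line. The oocyte points begin at 60 and 53 reads. The embryo points lie between 20 and 90 reads, and those above 80% all have fewer than 30 reads.

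Of the 56 sites, 13 were called at all 3 stages, 13 at 2 and 30 at 1. Of the last, 0 were specific to the GV list, 11 to the MII list and 19 to the embryo list. Another 7 were called in both oocytes and not in the embryo. The lists hold called sites alone, so the absence of a site can mean no methylation, a level under the limits or too few reads. A called site within 100 nt was available for 6 of the 18 sites missing from the embryo list, and the nearest had a median of 25 reads (22 to 37). For 11 of the 33 sites missing from the GV list the corresponding coverage was 165 reads (60 to 259), and for 7 of the 22 missing from the MII list it was 155 (131 to 284).

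At the 13 sites called at every stage the median level was 24.0% for GV oocytes, 34.9% for MII oocytes and 56.5% for 1-cell embryos. The level was higher at each later stage at 11 of them (84.6%) and lower at each at 0. Of the 6145 such sites of all genes it was higher at each at 67.4% (medians 21.6%, 28.1% and 45.5%). The lowest embryo level that could be listed was 25% at site 3090 (20 reads) and 10% at site 7285 (78 reads). Low embryo levels on few reads therefore could not enter. At sites shared with the MII oocyte the median embryo coverage was 29 reads for Lama5 and 66 over all genes. The limit is higher at fewer reads, and how strongly it acted on Lama5 and on all genes was not tested. The share and medians of Lama5 therefore cannot be set against those of all genes. The embryo value was the highest at 12 of the 13. The order of the sites was kept most closely between the oocytes, with a Pearson's r of 0.90 and a Spearman's rho of 0.82, compared with 0.61 and 0.62 between the MII oocyte and the embryo (13 sites that share libraries).

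Exon 1 held 4 sites between nt 69 and 171, just behind the start codon. In the order of the stages, site 81 was at 35.0% of 60 reads, 52.9% of 70 and 60% of 25. Site 171 was at 24.0% of 146, 34.9% of 126 and 54.7% of 53. Both were higher at each later stage. Site 98 was at 12.6% of 87 and 23.1% of 91 in the oocytes and was not called in the embryo, and site 69 was called in the MII oocyte alone, at 11.9% of 59 reads.

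Exon 6 held the site of highest level in both oocyte lists, and this site dropped out of the embryo list. Site 1005 was at 76.5% of 166 reads (95% Wilson interval 69.5 to 82.3) in the GV oocyte and 79.7% of 148 (72.5 to 85.4) in the MII oocyte, and whether it lost its methylation or its reads cannot be read from the embryo list. Site 1026, 21 nt downstream, was at 17.0% of 171 reads (12.1 to 23.3) and 22.6% of 164 (16.8 to 29.5) in the oocytes and at 95.5% of 22 (78.2 to 99.2) in the embryo. It had the largest difference between the GV oocyte and the embryo among the 16 sites called in both lists.

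Further along, sites 3090, 4078 and 4237 were among the 10 of highest level in each list. Site 4078 went from 48.6% of 222 reads to 65.5% of 145 and 100% of 29 (interval 88.3 to 100). Site 3090 went from 38.4% of 159 to 48.1% of 79 and 100% of 20 (83.9 to 100). The Type II site 4237 was steadier, at 38.5% of 182, 42.9% of 147 and 56.5% of 23 (36.8 to 74.4). In the oocytes the intervals of site 4237 overlap, at 31.7 to 45.7% and 35.1 to 50.9%.

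Exon 35 held a pair of sites 14 nt apart that behaved unlike each other. Site 4664 was absent from the GV list and stood at 12.2% of 222 reads (8.49 to 17.1) in the MII oocyte and at 96.6% of 29 (82.8 to 99.4) in the embryo. Site 4678 was at 20.6% of 252, 22.2% of 221 and 35.7% of 28 (20.7 to 54.2). The embryo intervals of the pair do not overlap, on nearly the same number of reads.

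Exon 48 was the densest stretch, with 5 sites between nt 6458 and 6511. In the embryo their levels were 35.6% of 45 reads at site 6458, 34.0% of 47 at 6467, 55.3% of 47 at 6477, 60% of 35 at 6510 and 13.9% of 36 at 6511. The last pair are neighbouring C, and their intervals of 43.6 to 74.4% and 6.08 to 28.7% do not overlap. Of these 5 sites, 6458, 6477 and 6510 were called in the GV oocyte, at 18.6% of 140, 11.4% of 114 and 25% of 144. In the MII oocyte 6458 and 6510 were called, at 11.5% of 131 and 29.3% of 140.

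The remaining sites called at every stage were 2724, 7285, 9963 and 11032. Site 2724 was at 19.2% of 208, 36.5% of 192 and 35.1% of 74, the only one of the 13 whose embryo value was not the highest. Site 7285 had the highest coverage in both oocyte lists and a low level throughout, at 12.0% of 259, 13.7% of 284 and 21.8% of 78. Site 9963 went from 24.0% of 217 to 35.1% of 154 and 80.8% of 26. Site 11032, in the last exon, went from 15.8% of 165 to 29.3% of 123 and 39.1% of 23. The embryo site of highest coverage, 7119, was at 11.1% of 90 reads and had been at 13.2% of 212 in the MII oocyte.

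**Figure D3:**
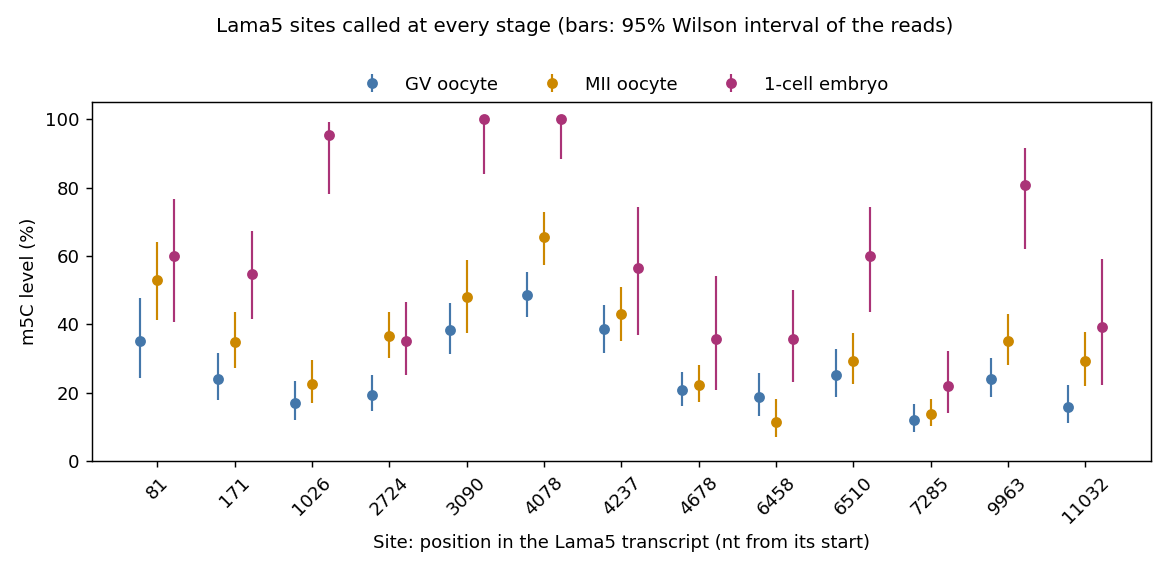
Level (%) of the 13 sites called at every stage, ordered by position in the transcript (nt from the start), with 1 point per stage and bars for the 95% Wilson interval of the reads. The medians are 24.0%, 34.9% and 56.5%, and the embryo points are the highest at 12 of the 13 sites. Their bars are the widest, as they rest on 20 to 78 reads.

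Reads at sites called in both lists were compared with Fisher's exact test (two-sided), adjusted by Benjamini-Hochberg over all shared sites of all genes. This test compares the reads of a pair of libraries and not the stages. Between the GV and MII oocytes 3 of 20 shared Lama5 sites were called higher in the MII oocyte and 0 lower, while 19.6% of the 12954 shared sites of all genes were called higher and 0.965% lower. The 3 are 15.0% of the 20, so Lama5 did not stand out by its calls. The level was above that in the GV oocyte at 17 sites and below it at 3, and the median difference was 5.65 percentage points, against 4.87 over all genes. Site 2724 was higher by 17.2 points (Fisher's exact test, Benjamini-Hochberg adjusted p = 0.00157), site 4078 by 16.9 points (exact test, adjusted p = 0.0131) and site 11032 by 13.5 points (exact test, adjusted p = 0.0440). Site 81 had the largest difference, 17.9 points, and was not called (exact test, adjusted p = 0.166). The values below those of the GV oocyte, at sites 6458, 1517 and 6720, differed by -7.12, -2.21 and -1.24 points and were not called.

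Between the MII oocyte and the 1-cell embryo 8 of 16 shared sites (50%) were called higher in the embryo and 0 lower, against 51.3% and 2.45% of the 8015 shared sites of all genes. The share was near that of all genes. The median difference was 16.7 points, compared with 12.7 over all genes, at a median embryo coverage of 29 against 66 reads. The level was above that in the MII oocyte at 14 sites and below it at 2. The largest differences were 84.4 points at site 4664 (exact test, adjusted p = 5.94e-19), 72.9 at site 1026 (exact test, adjusted p = 2.72e-10) and 51.9 at site 3090 (exact test, adjusted p = 2.36e-05). Sites 7119 and 2724 differed by -2.1 and -1.32 points and were not called. Where the MII level itself would have sufficed for a listing at the embryo coverage, in 14 of the 16 sites, 12 were above it and 6 were called higher, with a median difference of 13.6 points.

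Between the GV oocyte and the 1-cell embryo 11 of 16 shared sites (68.8%) were called higher and 0 lower, against 66.1% and 1.05% of the 6478 shared sites of all genes. The median difference was 26.6 points, compared with 19.2 over all genes, at a median embryo coverage of 28.5 against 64 reads. Site 1026 had the largest, 78.5 points (exact test, adjusted p = 1.53e-12), followed by site 3090 with 61.6 (exact test, adjusted p = 1.18e-07) and site 9963 with 56.8 (exact test, adjusted p = 7.96e-08). Site 856, at 14.4% of 118 reads in the GV oocyte and 11.9% of 42 in the embryo, was the only one below its GV level and was not called. Most of these calls rest on few embryo reads. With at least 50 reads at both stages, 2 of 3 shared sites were called higher than in the GV oocyte (69.3% of all sites) and 1 of 5 higher than in the MII oocyte (52.5%). The median differences were then 15.9 points from the GV oocyte (16.3 over all genes) and 8.06 from the MII oocyte (10.0 over all genes). At these 3 and 5 sites the Lama5 medians lay below those of all genes, and the part of coverage in the main differences was not tested. With all reads divided by 5, 1 Lama5 site was called in each comparison with the embryo, site 1026 against the GV oocyte (21% of all sites) and site 4664 against the MII oocyte (7.2%). With this setting 0 of 20 sites were called between the oocytes (0.672% of all sites). With a level of at least 20% at both stages, 1 of 10 sites was called higher between the oocytes (24.3% of all sites) and 5 of 8 between the GV oocyte and the embryo (67.6%).

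Of the 19 sites called in the embryo alone, site 9150 had the highest level, 85.7% of 21 reads (65.4 to 95), and was chosen for mention after its value was seen. It is the third base of exon 67, and the gene of the microRNA Mir7005 lies in the intron next to it. Sites 1725 and 4769 followed, at 55.6% of 27 and 52.2% of 23. The 11 sites of the MII oocyte alone were low, from 10.1% to 20.0%, on 59 to 248 reads. Sites unique to the embryo list thus included strongly methylated ones on thin coverage, and those unique to the MII list lay near the 10% limit.

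The sites were spread over the transcript, with a median gap of 144 nt between neighbours, from 1 to 813 nt. Another called site lay within 50 nt of 22 of the sites and within 10 nt of 7. The GV list held none between nt 7285 and 9963, a stretch of 2678 nt in which the MII and embryo lists held sites. The position in the codon was the first for 18 sites, the second for 15 and the third for 23 (32.1%, 26.8% and 41.1%), beside 32.6%, 26.0% and 41.4% of every C in the CDS. Called sites were thus distributed over codon positions much as C itself is. Read against the C of the transcript, Lama5 had 6.55, 9.69 and 10.8 called sites per 1000 C in the order of the stages, above 90.3%, 95.8% and 89.7% of genes with a site (gene medians 2.49, 2.96 and 3.94). Its length exceeded that of 98.3 to 98.5% of these genes. Among the 14 genes with 20 or more sites in the MII oocyte it ranked 8 by density, and among 49 in the embryo 34.

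Called sites were followed by more G than other C of the transcript. The bases +1 to +4 held on average 2.23 ± 0.874 G (SD, 56 sites), compared with 1.08 ± 0.869 for every C of the transcript (3509). At least 3 of these bases were G at 20 of the 56 sites (35.7%) and at 5.41% of every C. G stood at +1 in 44.6% of sites against 12.6% of every C, at +2 in 58.9% against 32.9%, at +3 in 66.1% against 29.9% and at +4 in 53.6% against 32.5%. By stage the mean number of G was 2.26, 2.26 and 2.16, and over the sites of all genes it was 2.1, 2.1 and 1.91. The median level did not climb steadily with the number of G in any list, on few sites per group. In the embryo it was 44.3% with 1 G (6 sites), 29.2% with 2 (20), 43.6% with 3 (8) and 34.0% with 4 (3). The GV oocyte had 15.6% (2 sites), 22.3% (12), 17.5% (6) and 12.4% (2) in the same order. The MII oocyte had 13.2% (4 sites), 22.2% (15), 16.7% (13) and 19.1% (1).

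In the predicted RNA fold, pairing was less frequent just before a called C and more frequent just behind it. In windows with 50 nt on either side of the C, the base before the site was paired in 35.7% of the 56 sites, compared with 59.7% of the 3423 other C of the transcript. The C itself was paired in 55.4% against 60% of them. Behind it the share was 69.6% against 54.7% at +1, 82.1% against 56.4% at +2, 82.1% against 58.0% at +3 and 69.6% against 59.7% at +4, and it was 60.7% against 59.4% at +5. With 30 nt on either side the values at +1 were 62.5% and 50%. Bases behind called sites also hold more G, and the part of base composition in this pattern was not tested.

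**Figure D4:**
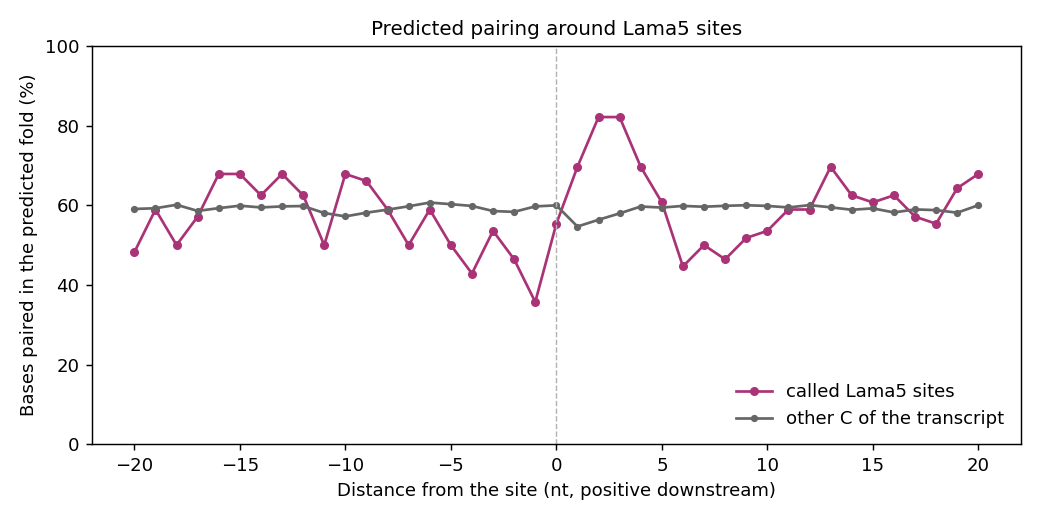
Share of bases paired in the minimum free energy fold (%) at each distance from the site (nt), for the 56 called Lama5 sites and the 3423 other C of the transcript. Called sites dip to 35.7% at -1 and reach 82.1% at +2 and +3, while the other C stay between 54.7% and 60.7%.

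The unconverted background of a gene, recovered from the deposited p-values, was 0.550%, 0.741% and 0.704% for Lama5 in the order of the stages. This exceeded the rate of 89.3%, 88.2% and 86.8% of genes, whose medians were 0.264%, 0.367% and 0.354%. The background was thus far below the 10% limit of the lists. Its part in the high number of sites was not tested.

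Other basement membrane genes carried fewer sites, which follows from the choice of Lama5 by its many sites and is not a result about these genes. Of 20 such genes beside Lama5, 10, 8 and 7 had a called site in the order of the stages, with 48, 45 and 32 sites between them. Lamb1, the β1 chain that pairs with α5, had 6, 7 and 18 sites and was read far more deeply, with medians of 3396.5, 2754 and 147.5 reads. Its median levels were 17.9%, 22.2% and 18.5%, over lists that hold different sites. Among the Lamb1 sites called in both lists of a pair, some were called higher in the embryo than in the MII oocyte or the GV oocyte, and none was called lower. Over all genes 51.3% of shared sites were called higher than in the MII oocyte and 66.1% than in the GV oocyte. Lamc1, the γ1 chain of the same trimers, had 16 and 15 sites in the GV and MII oocytes (median coverage 78.5 and 91 reads) and 0 in the embryo. The α2 chain gene Lama2 likewise had 11, 12 and 2. The 2 embryo sites of Lama2 had a median of 25 reads. Whether the sites absent from the embryo list lost methylation or reads cannot be read from it. Nid1, Nid2, Hspg2, Lama3, Lamb3 and Lamc3 had no site at any stage. Of 6 laminin receptor genes 3 had a site at each stage. Itga6, the α6 integrin, had 2, 5 and 9 sites, and Dag1, which encodes dystroglycan, had 2, 1 and 8. Of the shared sites of all these genes 9 of 37 were called higher and 2 lower from the GV to the MII oocyte (19.6% and 0.965% of shared sites of all genes). From the MII oocyte to the embryo 7 of 12 were called higher (51.3% over all genes). Between GV oocyte and embryo 8 of 10 were called higher (66.1%). In these comparisons with the embryo 0 were called lower (2.45% and 1.05%). With so few sites, the shares are not read as a trait of these genes.

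The genes whose site numbers were most like those of Lama5, by the summed absolute difference over the 3 lists, were Mn1 (19, 30 and 29 sites, distance 17), Gse1 (15, 25 and 39, distance 18) and Tet3 (16, 18 and 29, distance 32). Their median levels were 21.2%, 19.8% and 31.7% for Mn1, 18.4%, 18.5% and 25% for Gse1, and 18.5%, 20.9% and 22.8% for Tet3. In the embryo all 3 lay below the 35.6% of Lama5. Their median embryo coverage was 51, 68 and 188 reads, above the 39.5 of Lama5.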

How the data were processed

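The authors sequenced bisulfite-treated RNA, trimmed reads with cutadapt 1.13 and Trimmomatic 0.36 and aligned them with HISAT2 and then Bowtie2 2.2.9 to converted GRCm38 sequence. The labels name polyadenylated RNA, whereas the methods name RNA depleted of ribosomal RNA. Coverage was deposited as a count of C and T reads, without normalization. The level was deposited as a fraction (C over C plus T reads) and is given in percent. The p-value deposited is binomial, set against each gene's own conversion rate, from which the background was recovered. Reads at called sites summed to 4475058, 5285011 and 2616279 in the order of the stages.

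Lama5 sites were placed in GENCODE M21. Windows were folded with RNAfold (ViennaRNA 2.7.2, 37 °C). Tests used scipy 1.17.1, with calls at an adjusted p under 0.05. They were also run on simulated independent reads at shared sites, which does not cover the listing limits or differences in library preparation. Wilson intervals cover counting error only, since reads carry no molecular identifiers and neighbouring sites share reads. Named sites were those called in every list, those of highest level or coverage in a list, the 3 largest rises per pair and every shared site that fell. Other genes named were the 3 with the nearest site numbers and fixed lists of basement membrane, receptor, oocyte and cumulus genes. Members and lists were chosen with earlier results of these data known. Alternatives were a coverage of 50 reads, a level of 20%, pooled reads, subtracted background, CUCCA alone, a fold window of 61 nt and reads divided by 5.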

Additional observations from a re-analysis of the deposited data

How the results depend on the processing

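With 1 library per stage no value has a replicate check, and the lists limit what can be seen to 10% of at least 20 reads. With a level of at least 20%, the GV and MII oocytes kept 10 and 15 sites with median levels of 33.8% and 35.1%, and 1 shared site was called higher from GV to MII and 5 from GV to the embryo. The pooled level in the MII oocyte was 23.1%. With at least 50 reads the embryo had 11 sites with a median of 21.5%. The sites called higher then numbered 1 from MII and 2 from GV to the embryo. The median differences were 8.06 and 15.9 points, against 10.0 and 16.3 over all genes. With reads divided by 5, the sites called higher numbered 0 from GV to MII, 1 from MII to the embryo and 1 from GV to the embryo. In all genes this setting called 87 of 12954, 577 of 8015 and 1359 of 6478 sites higher. Of the 44 differences at named sites, 20 were called in the main setting, and 18 of these 20 were no longer called with reads divided by 5. That setting keeps each difference as it is. The 26 that stayed on their side of the threshold were mostly differences that had not been called in the main setting. Subtracting the background, using CUCCA alone and the window of 61 nt moved no stage value beyond its interval or 1.5 times. No paired analysis was possible because each stage has 1 library.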
